A study of Homo sapiens with 32 samples.

Results

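CSK inhibition for 6 h in TMD8 cells is described here across all genes measured well enough in the 4 libraries of that comparison. The genes are the 12025 of 25066 in the deposited table whose mean log2 value over those libraries was 5 or more, and they carried 99.83 to 99.84% of the assigned reads of each library. The study sequenced poly(A) RNA of TMD8 and DOHH2, both human lines from diffuse large B-cell lymphoma (DLBCL), in 32 libraries of paired 75-base reads. Cells of all groups carried an engineered Cas9, and the labels name no guide and no edited gene. The groups compared first are TMD8 with 500 nM CSKi, an inhibitor of the kinase CSK, for 6 h and TMD8 with the vehicle DMSO for 6 h, with 2 libraries each. The other groups compared are TMD8 with CSKi or DMSO for 1, 3 and 24 h and DOHH2 with CSKi or DMSO for 6 h, again with 2 libraries each. DOHH2 with CSKi or DMSO for 1 and 3 h entered only the choice of features and the spread in fits with DOHH2. DOHH2 with CSKi or DMSO for 24 h entered only alternative fits. The labels number the duplicates as bio replicates and do not say that they were separate cultures, so the p-values measure the spread between these libraries, which may be technical.

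CSK adds a phosphate to the C-terminal tyrosine that keeps Src family kinases closed. LYN, the chief kinase of that family in B cells, starts signals from the B cell receptor and also marks the tails of inhibitory receptors, which then recruit phosphatases such as SHP-1, the product of PTPN6. DLBCL of the activated B cell type, to which TMD8 belongs, is known for chronic signalling from the B cell receptor to NF-kB.

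The 4 libraries held 17731630 to 21378599 mapped reads, among 12273442 to 24907030 over all 32, and the gene with the lowest level among the 12025 had 23.2 reads per library on average. Duplicates correlated across genes with r = 0.997 in both groups. The SD of the log2 difference over genes was 0.171 between the CSKi duplicates and 0.170 between the DMSO duplicates, against 0.246 to 0.258 for the pairs of a CSKi and a DMSO library. All 6 B cell markers were measured, with summed normalised counts of 111594 and 114487 in CSKi and 110075 and 111587 in DMSO. All 8 markers of the activated B cell type were measured, with sums of 95460 and 93766 in CSKi and 104000 and 103210 in DMSO. Of 6 measured markers of the germinal centre type 5 reached the level required. The sums were 3011 and 3017 in CSKi and 4031 and 4025 in DMSO, LMO2 holding most of the difference. ITPKB was also lower in CSKi, and the groups of MYBL1 overlapped. SERPINA9 (531.5 and 535.6 in CSKi, 419.6 and 389.4 in DMSO) and S1PR2 (183.3 and 197.8 in CSKi, 153.6 and 141.1 in DMSO) were higher, so the set did not fall together. MME, the CD10 gene, had 1 and 0 reads in CSKi and 0 and 2 reads in DMSO. Of 11 T and NK cell markers 2 reached the level required and 6 had no read, CD3D, CD3G, CD2, CD8B, TRAT1 and KLRD1 (summed counts 105.4 and 96.9 in CSKi, 96.5 and 118.5 in DMSO). Of 9 myeloid markers 1 reached it and ELANE, FCN1 and S100A9 had no read (summed counts 99.2 and 110.3 in CSKi, 109.7 and 121.0 in DMSO). Of 10 fibroblast and epithelial markers 4 reached it and KRT18 had no read, and their sum was 4690 and 4330 in CSKi and 3551 and 3534 in DMSO. All 4 had both CSKi values above both DMSO values, as did 31.8% of all features tested. Most of that sum was the cadherin gene CDH1, which rose (0.34 ± 0.05 on the log2 scale), and the collagen gene COL1A1 (0.37 ± 0.10) was called too, a call lost in each fit without 1 library. The part of these markers in other results was not tested. In bulk RNA, fewer cells with a transcript and less of it per cell cannot be told apart.

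Across the genes tested, CSKi changed many transcripts by a little and few by a lot. Of the 12025 genes, 11929 were among the 12000 features tested with limma, and the other 96 lay at mean log2 values of 5.00 to 5.65 with log2 fold changes of -0.51 to 0.96. At a Benjamini-Hochberg adjusted p under 0.05, 679 genes were higher in CSKi than in DMSO, 834 were lower and 10416 were not called. The background over all 12000 features was 12.7% called, 5.67% higher and 6.98% lower. The median fold was 1.203 among the 679 and 1.224 among the 834. A fold of 1.5 or more was reached by 61 genes that rose and 116 that fell (background 0.517% and 1%), and a fold of 2 by 5 and 38. The median log2 fold change over all 11929 was 0.015. Leaving out any 1 of the 4 libraries left 836 to 890 features called, and 199 of the 679 and 371 of the 834 genes were called in all 4 of those fits. Both CSKi values lay above or both below both DMSO values for 678 of the 679 genes and for all 834, and the groups did not overlap in 56.7% of all features tested. Remarks below that the groups of a called gene lay apart therefore describe its values and add no support to its call.

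**Figure D1:**
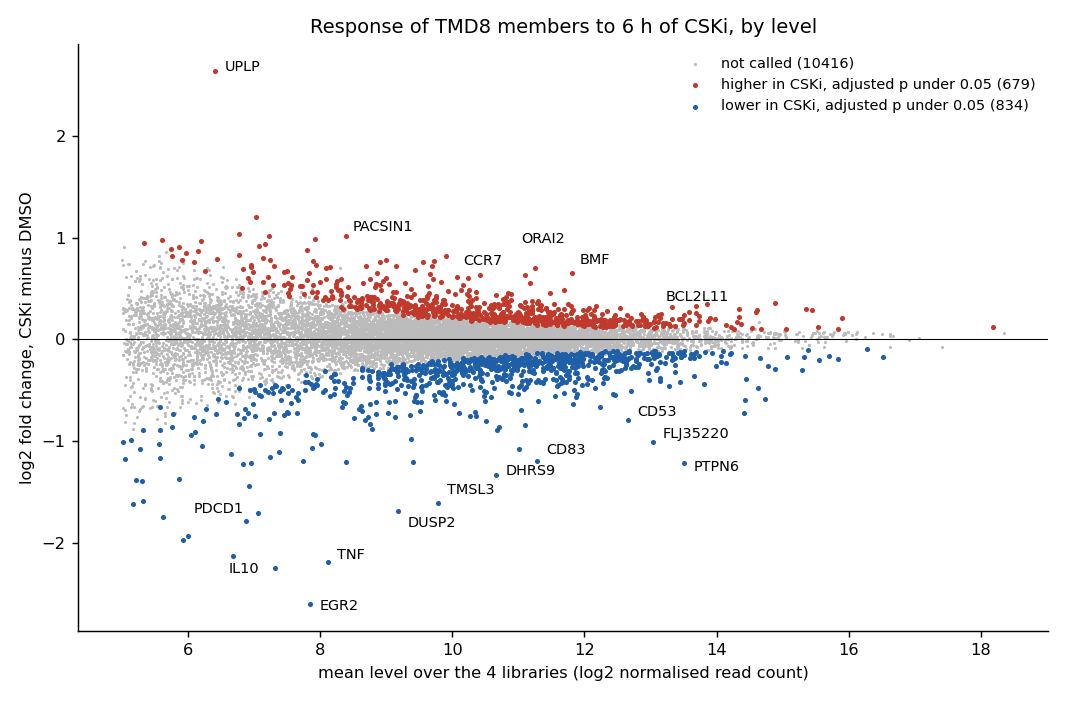
Log2 fold change (CSKi minus DMSO, y axis) against the mean log2 normalised read count (x axis) of the 11929 genes tested in TMD8 at 6 h, 1 point per gene, red for the 679 called higher, blue for the 834 called lower. Falls reach further than rises apart from UPLP, whose value rests on 1 DMSO library, and small changes are called only at high counts.

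How small a change could be called depended on the level. Among the 2983 tested genes of lowest level the median standard error (SE) was 0.196 and 60 genes were called higher and 96 lower, while among those of highest level, a group of like size, it was 0.047 with 282 higher and 352 lower. At the edge of the rule, CSNK2A1P and HIST1H2BH had mean log2 values of 5.0015 and were included, and DKFZP779L1853 and LOC100287269 had 4.9985 and were not. The largest fold of all belonged to UPLP, now UPK3BL1, at 6.23-fold higher. It had 196 and 230.1 normalised counts in CSKi and 5.80 and 198 in DMSO, so the groups overlap and DMSO replicate 1 alone is low. Without that library the log2 difference was 0.10, against 2.64 with it.

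PTPN6, which encodes the SHP-1 phosphatase that damps B cell receptor signals, had the smallest p of all genes. It had 7686 and 7612 normalised counts in CSKi and 17658 and 17954 in DMSO, a 2.33-fold fall (-1.22 ± 0.03, adjusted p = 6.15e-20 by limma, ± SE throughout, n = 2 and 2). The 2 CSKi libraries lay close together and far below both DMSO libraries. Other inhibitory receptors and phosphatases moved in both directions. Of 24 tested, 7 fell and 4 rose, with a median of -0.05. LAIR1, an inhibitory receptor for collagen, had 67.2 and 59.2 in CSKi and 239.9 and 197 in DMSO and fell 3.44-fold (-1.78 ± 0.16). PTPN7 (-0.49 ± 0.05), a phosphatase of MAP kinases, the Fc receptor-like gene FCRL5 (-0.48 ± 0.04) and the semaphorin receptor gene CD72 (-0.43 ± 0.04) fell as well, while FCRL2 (0.22 ± 0.04) and the sialic acid lectin gene SIGLEC10 (0.22 ± 0.04) rose.

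Genes of the kinases themselves moved less. CSK had 18179 and 17954 normalised counts in CSKi and 19123 and 18651 in DMSO (-0.06 ± 0.04, adjusted p = 0.268), and PAG1, the membrane anchor of CSK, stood at 0.06 ± 0.08 (adjusted p = 0.672). Neither difference passed the test. LYN fell slightly (-0.14 ± 0.04), a call lost without CSKi replicate 2 or without DMSO replicate 1 (adjusted p up to 0.224). In all, 3 of 14 genes of CSK and the Src family rose and 3 fell (1 rise and 1 to 3 falls in the fits without 1 library), with a median of 0.005 that became -0.018 after quantile normalization and -0.008 with equal medians. Of 24 proximal B cell receptor genes 4 rose and 4 fell (2 or 3 of each in the fits without 1 library), with a median of 0.001, or -0.012 with equal medians. The receptor subunit gene CD79B (0.29 ± 0.04) and the exchange factor gene VAV2 (0.33 ± 0.04) were among the rises. The adaptor genes PIK3AP1 (-0.28 ± 0.04) and BLNK (-0.22 ± 0.04) were among the falls.

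Early response genes and cytokines held many of the largest falls. Of 18 immediate early factors tested 8 fell and JUND rose (median -0.26; 5 to 7 falls and no rise in the fits without 1 library), of 12 ERK feedback genes 6 fell (median -0.27) and of 16 cytokines and chemokines 6 fell (median -0.235), each beside a median of 0.015 over all genes. EGR1, a zinc finger factor switched on by ERK and serum response factor, had 45.8 and 52.5 normalised counts in CSKi and 208 and 222 in DMSO (4.38-fold lower, -2.13 ± 0.16, adjusted p = 6e-10). The related EGR2 had 91.7 and 95.5 in CSKi and 584 and 553 in DMSO, and EGR3 had 32.1 and 40.4 in CSKi and 92.2 and 94.6 in DMSO (-1.38 ± 0.22). In each of the 3, both CSKi libraries lay far below both DMSO libraries. JUN, an AP-1 subunit gene, fell less (-0.40 ± 0.07). DUSP2, a nuclear phosphatase of ERK, had 284 and 367 in CSKi and 1088 and 989.8 in DMSO (-1.68 ± 0.10), and DUSP10 (-1.05 ± 0.23), a phosphatase of p38 and JNK, fell too. TNF had 118 and 144 normalised counts in CSKi and 606 and 585 in DMSO (-2.19 ± 0.12). IL6, a cytokine that signals through STAT3, had 27.5 and 33.6 in CSKi and 124 and 115 in DMSO (3.93-fold lower, -1.97 ± 0.25). The lymphotoxin genes LTA (105 and 91.5 in CSKi, 196 and 178 in DMSO, -0.93 ± 0.16) and LTB (632 and 554 in CSKi, 915 and 896 in DMSO, -0.61 ± 0.08) fell less, and their groups did not overlap.

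The starts of EGR1, LTB and IL6 are shown because each holds the motif searched for with its list, 250 bases before the annotated start, 5′ to 3′ on the gene's strand, with the motif in capitals. The sequences are from RefSeq on GRCh38.p14, while the submitters' processing notes name hg19, and genes were matched by gene ID. EGR1 lies on the plus strand at chr5:138465229-138465478 with 2 CArG boxes, the site of serum response factor. LTB lies on the minus strand at chr6:31582426-31582675 and IL6 on the plus strand at chr7:22726950-22727199, each with 1 NF-kB site.
EGR1: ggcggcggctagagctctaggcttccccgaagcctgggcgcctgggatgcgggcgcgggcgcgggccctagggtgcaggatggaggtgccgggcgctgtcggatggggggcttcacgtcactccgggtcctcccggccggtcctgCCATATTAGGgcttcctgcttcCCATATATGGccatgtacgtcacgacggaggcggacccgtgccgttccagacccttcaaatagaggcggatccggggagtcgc
LTB: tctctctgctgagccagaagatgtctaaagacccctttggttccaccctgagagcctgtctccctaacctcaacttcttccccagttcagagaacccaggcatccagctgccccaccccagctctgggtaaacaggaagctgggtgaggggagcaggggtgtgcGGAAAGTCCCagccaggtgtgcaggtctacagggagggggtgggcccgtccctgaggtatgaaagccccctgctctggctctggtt
IL6: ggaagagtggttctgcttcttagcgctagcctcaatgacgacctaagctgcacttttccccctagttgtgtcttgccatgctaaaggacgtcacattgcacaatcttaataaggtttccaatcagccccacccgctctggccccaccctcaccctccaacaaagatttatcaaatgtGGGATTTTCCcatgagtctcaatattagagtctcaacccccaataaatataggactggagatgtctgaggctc
A window was given for 9282 of the 11929 genes tested, at the start listed first for each gene, and both strands were searched. A CArG box stood in 2 of 13 windows of immediate early factors (15.4%) and in 1.08% of the 9282. An NF-kB site stood in 5 of 14 windows of cytokines and chemokines (35.7%) and in 5.81% of the 9282. Over all genes it stood in 5.28% of windows of genes called lower and 6.88% of those called higher, and in 5.13% of those at least 1.5-fold lower and 14.6% of those at least 1.5-fold higher. The cytokine and chemokine genes with the site besides LTB and IL6 were CCL22 (-0.36 ± 0.17), CXCL10 (-0.39 ± 0.28) and IL12A (-0.20 ± 0.18), which were not called. The windows searched for EGR2 and TNF did not hold the motif searched for with their list. In all, 8 motifs were searched in 17 sets of genes, the windows shown were chosen after it was seen that they hold one, and no test was made.

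**Figure D2:**
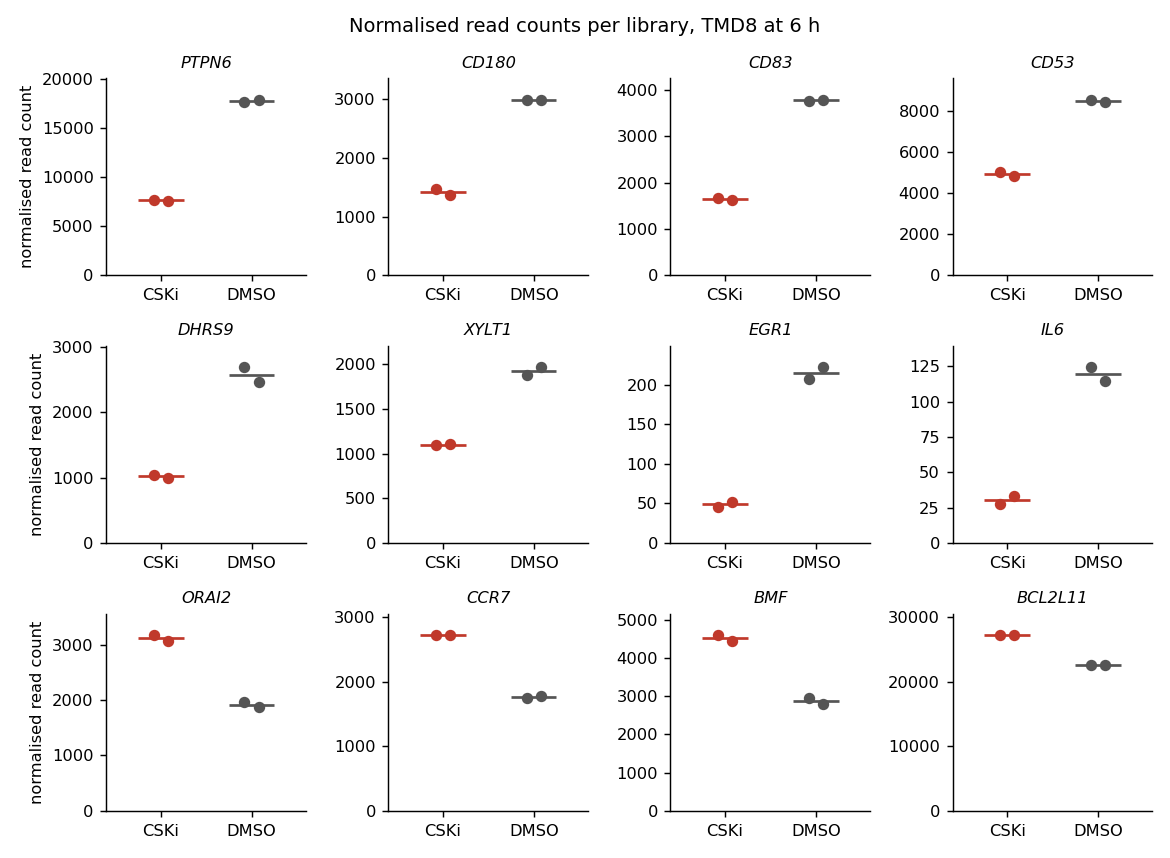
Normalised read counts (y axis, from 0, linear) of 12 genes in the 2 CSKi libraries (red) and the 2 DMSO libraries (grey) of TMD8 at 6 h, 1 point per library with a bar at the mean of the 2. In every panel the points of a group sit closer to each other than to the other group, with PTPN6 at 7686 and 7612 in CSKi and 17658 and 17954 in DMSO.

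NF-kB feedback genes and activation markers split. Of 22 NF-kB subunits and feedback genes 4 fell and 2 rose (median -0.03). The falls were the nuclear inhibitor gene NFKBID (-0.61 ± 0.07), NFKBIA (-0.41 ± 0.05), REL (-0.40 ± 0.07) and NFKB1 (-0.38 ± 0.04), and the rises were BCL3 (0.29 ± 0.06) and TNIP1 (0.21 ± 0.04). CD83, a surface protein of activated B cells, had 1665 and 1630.4 normalised counts in CSKi and 3764 and 3793 in DMSO (2.29-fold lower, -1.20 ± 0.05, adjusted p = 2.29e-14). CD69, an early activation marker, had 22.9 and 30.95 in CSKi and 96.5 and 83.2 in DMSO (-1.75 ± 0.27), while the costimulator gene CD86 rose (0.30 ± 0.05). PDCD1, which encodes the inhibitory receptor PD-1, had 68.7 and 79.4 in CSKi and 250.04 and 233 in DMSO and fell 3.27-fold (-1.71 ± 0.17).

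Several Toll-like receptor genes fell, most of all their relative CD180. CD180, a Toll-like receptor relative on B cells, had 1472 and 1368 normalised counts in CSKi and 2994 and 2998 in DMSO (2.11-fold lower, -1.08 ± 0.05, adjusted p = 2.29e-14). Of 18 receptor and adaptor genes 7 fell and 2 rose (median -0.11), and 5 fell and 1 rose in each fit without 1 library. TLR7 (-0.61 ± 0.10), TLR10 (-0.51 ± 0.11), TLR2 (-0.46 ± 0.09) and TLR4 (-0.38 ± 0.08) were among the falls, and IRAK3 (0.41 ± 0.09), an inhibitor of the pathway, rose. LY86, which encodes the partner protein of CD180, was the other rise at 0.33 ± 0.10, and its call was lost in all 4 fits without 1 library (adjusted p up to 0.216).

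Other surface and membrane genes were among the strongest falls. CD53, a tetraspanin of leukocytes, had 5004 and 4801 normalised counts in CSKi and 8539.9 and 8428 in DMSO (1.73-fold lower, -0.79 ± 0.04, adjusted p = 4.52e-14). LRMP, now IRAG2, a membrane protein of the endoplasmic reticulum in lymphoid cells, had 17151 and 16751 in CSKi and 28231 and 27804 in DMSO (-0.73 ± 0.04). DHRS9, a retinol dehydrogenase, had 1043 and 1002 in CSKi and 2689 and 2466 in DMSO (2.52-fold lower, -1.33 ± 0.07). In these genes and in CD180 and CD83, the duplicates of a group differed by far less than the groups. FLJ35220, now ENDOV, an endonuclease acting at inosine, had 5951 and 5959.6 in CSKi and 11894 and 12010.4 in DMSO (2.01-fold lower, -1.01 ± 0.04, adjusted p = 1.09e-16). Other falls past 2-fold were the scaffold gene HOMER1 (-1.21 ± 0.10), the adaptor gene SH2D2A (-1.19 ± 0.12), the pyrophosphatase gene ENPP1 (-1.16 ± 0.14) and the amino acid oxidase gene IL4I1 (-1.11 ± 0.10). TMSL3 (TMSB4XP8), a pseudogene copy of thymosin beta 4, had 503 and 502 in CSKi and 1517 and 1538 in DMSO (-1.61 ± 0.08). It can share reads with TMSB4X, which fell by only 0.17 on the log2 scale, so its value is uncertain.

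Calcium, migration and adhesion genes changed in both directions. ORAI2, a subunit of store-operated calcium channels, had the smallest p of all rises, with 3169 and 3064 normalised counts in CSKi and 1960.5 and 1873 in DMSO (1.63-fold higher, 0.70 ± 0.05, adjusted p = 8.33e-11). ATP2A3, the calcium pump SERCA3, rose as well (0.29 ± 0.04), and NFATC1, the transcription factor that calcineurin activates, fell (-0.75 ± 0.07). Of 19 calcium and NFAT genes 3 rose and 5 fell, with 2 falls in each fit without 1 library. CCR7, the receptor that guides B cells to the T cell zone, had 2725 and 2723 in CSKi and 1749 and 1779 in DMSO (0.63 ± 0.06, adjusted p = 9.26e-09). CXCR4, the receptor for CXCL12, also rose (0.61 ± 0.08). Of 20 migration receptors and RGS genes 3 rose and 7 fell (4 to 6 falls in the fits without 1 library), and RGS13 (-0.88 ± 0.09) and RGS2 (-0.74 ± 0.09), which shorten G protein signals, were among the falls. Of 23 integrins and adhesion genes 3 rose (1 or 2 in the fits without 1 library) and 4 fell, with the integrin genes ITGB2 (-0.73 ± 0.07) and ITGA4 (-0.56 ± 0.06) and the kinase gene PTK2B (-0.46 ± 0.05) lower. Of 35 actin regulators 5 fell and CYFIP2 rose, with RAC2 (-0.24 ± 0.03), a GTPase of blood cells, and CORO1A (-0.23 ± 0.04) among the falls.

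B cell state genes were split too. ZBTB32, a repressor expressed in activated B cells, had 415 and 480.4 normalised counts in CSKi and 1072 and 996 in DMSO (2.31-fold lower, -1.21 ± 0.08, adjusted p = 9.45e-12). Of 26 activated B and plasmablast factors 8 fell and 3 rose (median -0.10), including SOCS3 (-0.70 ± 0.07), AHR (-0.39 ± 0.07), PRDM1 (-0.27 ± 0.05) and IRF4 (-0.17 ± 0.03) on the lower side. Of 26 germinal centre and B identity genes 4 fell and 4 rose (median 0.06; 2 or 3 rises in the fits without 1 library). The coregulator gene LMO2 had 1266 and 1214 in CSKi and 2265 and 2232 in DMSO and fell (-0.86 ± 0.06), and POU2AF1, the octamer coactivator, had 1407 and 1255 in CSKi and 883 and 857 in DMSO and rose (0.61 ± 0.07). CIITA, the transactivator of MHC class II, had 1208 and 1200.2 in CSKi and 2307 and 2172 in DMSO (1.86-fold lower, -0.90 ± 0.07, adjusted p = 1.3e-09). Of 19 class II genes 7 fell and 1 rose (median -0.15), with 4 to 6 falls in the fits without 1 library. HLA genes of near-identical sequence share reads, so single members such as HLA-DRB1 are uncertain. Of 17 class I genes 2 rose and 1 fell, HLA-E (-0.31 ± 0.04), and both rises were lost in each fit without 1 library.

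Transcripts for growth and biosynthesis fell in large shares of their lists. Of 40 ribosome biogenesis genes 31 fell and none rose (median -0.26), with 24 to 26 falls in the fits without 1 library. RRS1, which assembles the large subunit, had 1239.9 and 1184 normalised counts in CSKi and 1755 and 1714 in DMSO (-0.52 ± 0.06), the helicase gene DDX21 had 8481 and 8434 in CSKi and 11682 and 11642 in DMSO (-0.46 ± 0.06), and the nucleolar protein gene NOLC1 had 8096 and 7723 in CSKi and 10616 and 10023 in DMSO (-0.38 ± 0.04). In all 3 the groups did not overlap. MYC, whose product drives such genes, had 1707 and 1597 in CSKi and 2669 and 2665 in DMSO (1.62-fold lower, -0.69 ± 0.06, adjusted p = 3.44e-09). Of 15 amino acid transporters 8 fell and none rose (median -0.20). The cationic amino acid transporter gene SLC7A1 had 22757 and 21724 in CSKi and 33971 and 32905 in DMSO (-0.59 ± 0.03), and the glutamine transporter genes SLC38A5 (-0.52 ± 0.07) and SLC1A5 (-0.27 ± 0.05) fell with it. SLC7A5, the large neutral amino acid transporter, stood at 0.08 ± 0.04 and did not pass the test (adjusted p = 0.203).

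Neighbouring growth lists shifted less. Of 29 subunits of RNA polymerases I and III 5 fell (2 to 4 in the fits without 1 library), all of them polymerase I genes, with POLR1E (-0.26 ± 0.04) called also in every fit without 1 library. Of 20 cytosolic tRNA synthetases 7 fell (median -0.08; 4 or 5 in the fits without 1 library), such as GARS (-0.24 ± 0.04). Of 37 translation factors 8 fell and 2 rose (median -0.04), with 4 or 5 falls and at most 1 rise in the fits without 1 library and 5 to 9 falls under other scalings. Of 25 nucleotide synthesis genes 10 fell and 1 rose, and 2 to 7 fell in the fits without 1 library. PRPS2 (-0.36 ± 0.06), a synthase at the head of the pathway, was among the falls. Of 11 polyamine genes 3 fell, among them ODC1 (-0.44 ± 0.04), the rate-limiting enzyme. Cytosolic ribosomal protein genes did not share the fall, with 2 of 49 risen and none fallen (median 0.05), and the calls, RPL11 and RPL13, were lost in 3 and in all 4 of the fits without 1 library. Of 40 mitochondrial ribosome genes 1 rose and 1 fell (no rise and 0 to 3 falls in the fits without 1 library), of 39 oxidative phosphorylation genes 1 rose (0 or 1), and of 31 proteasome genes none was called.

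Some sterol and fatty acid synthesis genes fell, while most of each list was not called or rose. Of 29 cholesterol genes 11 fell and 1 rose (median -0.16). HMGCS1, an early enzyme of the pathway, had 2994 and 3172 normalised counts in CSKi and 4378 and 4354 in DMSO (-0.50 ± 0.06), and the late pathway enzyme genes DHCR7 (-0.51 ± 0.08) and CYP51A1 (-0.46 ± 0.06) fell too. The rise was MYLIP, which marks the LDL receptor for decay, and it was lost in all 4 fits without 1 library (adjusted p up to 0.221). Of 17 fatty acid genes 7 fell and 2 rose (4 or 5 falls and 1 or 2 rises in the fits without 1 library), with FASN (-0.42 ± 0.04) and the desaturase gene SCD (-0.38 ± 0.05) lower. HK2, the hexokinase of fast-growing cells, fell (-0.54 ± 0.04), one of 2 falls among 29 glycolysis and hypoxia genes (1 or 2 in the fits without 1 library), where 1 gene rose.

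A minority of chaperone genes of the endoplasmic reticulum fell, by small amounts. Of 37 unfolded protein response genes 8 fell and none rose (median -0.09). HSPA5, the master chaperone BiP, had 7077 and 6970.3 normalised counts in CSKi and 9140.1 and 9352 in DMSO (1.32-fold lower, -0.40 ± 0.03, adjusted p = 3.44e-09). The lectin chaperone genes CALR (14807 and 14838 in CSKi, 17879 and 17707 in DMSO, -0.26 ± 0.03) and CANX (9191 and 8921 in CSKi, 10198 and 10255 in DMSO, -0.18 ± 0.03) and the disulfide isomerase gene PDIA4 (-0.30 ± 0.04) fell with it, and the duplicates of each lay apart from the other group. Of 25 heat shock and chaperonin genes 5 fell, among them HSPA8 (-0.31 ± 0.04), and 2 to 4 fell in the fits without 1 library.

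The windows of HSPA5, CALR and CANX are shown because they are the 3 of the 834 genes called lower that hold an ERSE, the endoplasmic reticulum stress element. They are again the 250 bases before the start from RefSeq on GRCh38.p14, 5′ to 3′, with the motif of either strand in capitals. HSPA5 lies on the minus strand at chr9:125241344-125241593, CALR on the plus strand at chr19:12938359-12938608 and CANX on the plus strand at chr5:179698679-179698928.
HSPA5: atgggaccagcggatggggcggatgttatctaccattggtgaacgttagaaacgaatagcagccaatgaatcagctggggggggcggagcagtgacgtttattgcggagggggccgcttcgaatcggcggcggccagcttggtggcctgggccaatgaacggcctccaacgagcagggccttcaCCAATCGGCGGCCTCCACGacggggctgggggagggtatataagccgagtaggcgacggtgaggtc
CALR: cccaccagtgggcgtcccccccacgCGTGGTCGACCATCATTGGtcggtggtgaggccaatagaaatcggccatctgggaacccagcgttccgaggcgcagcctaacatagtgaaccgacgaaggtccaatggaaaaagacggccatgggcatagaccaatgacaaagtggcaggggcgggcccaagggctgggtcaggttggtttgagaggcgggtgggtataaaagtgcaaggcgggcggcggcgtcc
CANX: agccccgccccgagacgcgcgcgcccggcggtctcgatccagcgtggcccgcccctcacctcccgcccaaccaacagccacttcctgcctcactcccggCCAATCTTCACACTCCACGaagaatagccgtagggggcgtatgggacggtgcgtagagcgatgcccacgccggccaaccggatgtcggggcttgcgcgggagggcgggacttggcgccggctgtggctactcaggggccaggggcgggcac
An ERSE stood in 6 of 35 windows of the unfolded protein response list (17.1%) and in 14 of all 9282 (0.151%), and in none of the 538 windows of genes called higher. The other 3 of the list were XBP1 (-0.20 ± 0.08), HSP90B1 (-0.08 ± 0.03) and CRELD2 (-0.18 ± 0.09), which were not called. The E-box CACGTG, the site of MYC and its relatives, stood in 4 of 33 windows of ribosome biogenesis genes (12.1%), in 10.9% of windows of genes called lower, in 9.67% of those called higher and in 9.33% of all 9282. It stood in 5.13% of windows of genes at least 1.5-fold lower and 8.33% of those at least 1.5-fold higher. Of windows of lysosome and autophagy genes, a list with 7 rises and no fall, 9 of 23 held it (39.1%). Among these 9 genes only LAMP1 (0.15 ± 0.04) was called. ATP6V0D1, CTSA, GAA, KIAA0831, MCOLN1, NEU1 and FNIP1 stood above 0 and CTSD (-0.13 ± 0.05) below 0, all without a call.

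**Figure D3:**
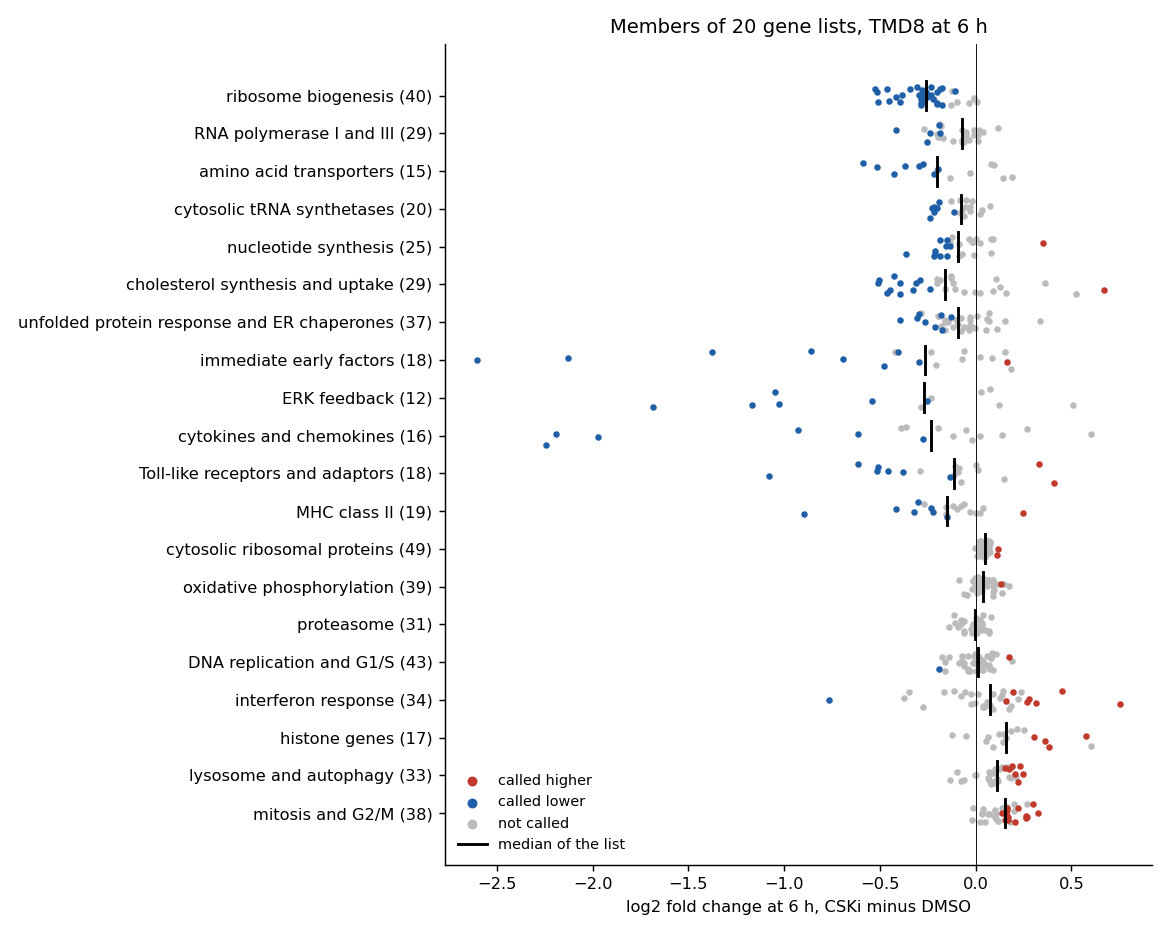
Log2 fold change (CSKi minus DMSO, x axis) of every tested member of 20 gene lists in TMD8 at 6 h, 1 point per gene, red for called higher, blue for called lower, grey for not called, with a black bar at each list's median and the number tested in brackets. Ribosome biogenesis sits left of 0 as a block (31 of 40 called lower), mitosis and lysosome genes sit mostly right of 0, and early factors and cytokines hold the longest tails.

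Among genes of cell death, proapoptotic members moved in opposite directions. BMF, a BH3-only protein gene, had 4595 and 4429.7 normalised counts in CSKi and 2959 and 2789.9 in DMSO (1.57-fold higher, 0.65 ± 0.06, adjusted p = 3.68e-08). BCL2L11, which encodes BIM, had 27175 and 27175 in CSKi and 22553 and 22553 in DMSO and rose 1.21-fold (0.27 ± 0.03). BIK, another BH3-only gene, had 82.5 and 64.6 in CSKi and 200.3 and 197 in DMSO and fell 2.72-fold (-1.44 ± 0.17). The groups of these 3 genes did not overlap. BCL2A1, an antiapoptotic NF-kB target, fell (-0.44 ± 0.05). Of 15 BCL2 family genes 4 rose and 3 fell (median 0.015), with 2 or 3 of each in the fits without 1 library.

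Small rises were called in several lists. Of 38 mitosis and G2/M genes 15 rose and none fell (median 0.15), with 5 to 10 rises in the fits without 1 library, while of 43 DNA replication and G1/S genes 1 rose and 1 fell (median 0.01). The topoisomerase gene TOP2A had 13409.8 and 13654 normalised counts in CSKi and 11159.6 and 11315 in DMSO (0.27 ± 0.04), and KIF20A (0.30 ± 0.06) and BIRC5 (0.33 ± 0.07), a mitotic kinesin and survivin, rose likewise. Of 33 lysosome and autophagy genes 7 rose and none fell (median 0.11), with 3 or 4 rises in the fits without 1 library. These included the receptor gene SQSTM1 (0.25 ± 0.05) and the protease gene CTSB (0.22 ± 0.04). Of 34 interferon response genes 7 rose and 1 fell (median 0.07). ISG20, an exonuclease, had 962 and 986 in CSKi and 553 and 603 in DMSO (0.76 ± 0.09), the antiviral synthetase gene OAS1 rose (0.45 ± 0.05), and the guanylate-binding protein gene GBP2 fell (-0.77 ± 0.09). Of 17 histone genes 4 rose (median 0.16), and histone genes of near-identical sequence can share reads.

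The genes with the largest or firmest rises had varied roles. FAM102A, now EEIG1, had 1229.6 and 1316 normalised counts in CSKi and 708 and 739 in DMSO (1.76-fold higher, 0.82 ± 0.07, adjusted p = 1.42e-08). CEACAM1, an adhesion receptor with an inhibitory tail, had 1161 and 1052 in CSKi and 636 and 658 in DMSO (1.71-fold higher, 0.77 ± 0.07). PACSIN1 had 464 and 486 in CSKi and 239.9 and 231 in DMSO (1.01 ± 0.16), and SLAMF6, a receptor of lymphocytes, had 342 and 339 in CSKi and 151 and 195 in DMSO (0.99 ± 0.15). Both groups stood apart in each, which the rule for naming the largest changes required. CECR2, part of a chromatin remodelling complex, had 218 and 205 in CSKi and 98.0 and 112 in DMSO (1.01 ± 0.17). The semaphorin receptor gene PLXNA2 (0.93 ± 0.17), the junctional membrane gene JPH3 (0.92 ± 0.20), the transcription factor gene OSR2 (0.88 ± 0.17), the protease gene HTRA3 (0.78 ± 0.10) and RIMS3 (0.76 ± 0.10) rose as well. PLA2G2D (1.21 ± 0.26) lost its call without CSKi replicate 1 or DMSO replicate 1 (adjusted p up to 0.0808), and VASN (0.78 ± 0.18) without CSKi replicate 2 (adjusted p = 0.159).

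The response at 6 h was next set against the other times, each with its own vehicle libraries. The test called 6 of 12000 features at 1 h (0.05%), 568 at 3 h (4.73%, 1.48% higher and 3.26% lower) and 6486 at 24 h (54%, 27.9% higher and 26.2% lower). Of the 679 genes higher at 6 h, 114 were also higher at 3 h (16.8%) and 527 at 24 h (77.6%), and 42 were lower at 24 h. Of the 834 lower at 6 h, 296 were also lower at 3 h (35.5%) and 549 at 24 h (65.8%), and 103 were higher at 24 h. Seen from 3 h, 64.4% of the 177 genes higher there and 76.3% of the 388 lower there were called the same way at 6 h. Over the 11929 genes, r of the log2 fold changes with those at 6 h was 0.04 at 1 h, 0.52 at 3 h and 0.50 at 24 h, a description over genes of separate libraries.

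The difference between the 6 h and the 3 h response was called for 48 genes (0.4%), 21 higher and 27 lower at 6 h, and for 12 to 23 without any 1 of the 8 libraries. All 27 were genes that fell at 6 h. PTPN6, at -1.22 ± 0.03 at 6 h, had 10233 and 10044 normalised counts at 3 h in CSKi and 17175 and 16903 in DMSO (-0.75 ± 0.03), a difference of responses of -0.47 ± 0.04 (adjusted p = 2.2e-07). XYLT1, which starts glycosaminoglycan chains, had 1098 and 1106 at 6 h in CSKi and 1877 and 1966 in DMSO, against 1679 and 1846 at 3 h in CSKi and 1711 and 1715 in DMSO (difference of responses -0.84 ± 0.08, adjusted p = 1.33e-07). The groups of XYLT1 lay apart at 6 h and overlapped at 3 h. The responses of the receptor gene LRP8 (-0.58 ± 0.08) and FLJ35220 (-0.56 ± 0.05) were also lower at 6 h than at 3 h, and FLJ35220 had already fallen at 3 h (-0.44 ± 0.04). TMSL3 had 503 and 524 at 3 h in CSKi and 576 and 574 in DMSO. Its 2 DMSO libraries of 6 h, at 1517 and 1538, were the only ones of the 16 TMD8 libraries above 728 normalised counts, so its 6 h value rests on the vehicle. On the higher side, the responses of ORAI2 (0.43 ± 0.07) and ATP2A3 (0.29 ± 0.05) were higher at 6 h than at 3 h, when ORAI2 had risen (0.27 ± 0.05) and ATP2A3 stood at 0.00 ± 0.04. The vehicle itself moved between 3 h and 6 h for FLJ35220 (0.31 ± 0.04) and ORAI2 (-0.28 ± 0.05). The CSKi libraries moved by -0.26 ± 0.04 for FLJ35220 and 0.15 ± 0.05 for ORAI2. Each difference of responses is the CSKi movement minus that of the vehicle, and why the vehicle moved was not tested. The response of the adenosine receptor gene ADORA2A (0.45 ± 0.07) was higher at 6 h than at 3 h, when it was below its vehicle. At 6 h itself it was not called. EGR2 had 20.5 and 35.4 at 3 h in CSKi and 598 and 627 in DMSO, so its fall was smaller at 6 h (difference of responses 1.90 ± 0.24). These CSKi counts at 3 h are low, so the size of that difference is uncertain. For the related EGR1 the difference was not called (0.24 ± 0.23).

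Of the genes called at 6 h, 0 of the 679 higher and 5 of the 834 lower were called the same way at 1 h. The difference between the 2 responses was itself called in that direction for 269 of the 679 and 394 of the 834. For the rest a missing call at 1 h does not show a different response. The 6 h and the 1 h response differed for 708 features (5.9%, or 399 to 688 without 1 of the libraries), of the 11929 genes 299 higher (background 2.49%) and 407 lower (3.41%) at 6 h, and 269 of the 299 rose and 394 of the 407 fell at 6 h. CD180 had 3428 and 3492 normalised counts at 1 h in CSKi and 3466 and 3346 in DMSO, and DHRS9 had 4079 and 3869.7 at 1 h in CSKi and 4136 and 3623 in DMSO. Both pairs of groups overlapped at 1 h. The differences of responses were -1.10 ± 0.07 for CD180 and -1.37 ± 0.09 for DHRS9. CCR7 (0.71 ± 0.08), OLFML2A (0.69 ± 0.09) and BCL2L11 (0.32 ± 0.04) were higher at 6 h than at 1 h in the same sense. For EGR2 and TNF, which were already low at 1 h, the difference did not pass the test (-0.58 ± 0.24, adjusted p = 0.17, and -0.31 ± 0.17, adjusted p = 0.355). EGR1 and DUSP2 were also already low at 1 h, but their falls were called larger at 6 h (differences of -0.88 ± 0.23 and -0.83 ± 0.14).

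By 24 h several falls of 6 h had ended or turned. The responses at 6 and 24 h differed for 3549 features (29.6%). MPEG1, the pore protein gene of phagocytes and B cells, had 19688 and 19296 normalised counts at 6 h in CSKi and 25532 and 25709 in DMSO, against 42879.5 and 43689.5 at 24 h in CSKi and 29025 and 29005 in DMSO (-0.97 ± 0.04, adjusted p = 1.32e-14). CSKi libraries thus lay below DMSO at 6 h and above DMSO at 24 h. FCRL5 (-0.85 ± 0.05) and NAPSB (-0.79 ± 0.05) turned in the same way. CD180 had 3694 and 3929 at 24 h in CSKi and 3935 and 3965 in DMSO, a log2 fold change of -0.05 ± 0.05 against -1.08 ± 0.05 at 6 h. PTPN6 stood at -0.40 ± 0.03 at 24 h (difference of responses -0.82 ± 0.04). In the other direction, STAT3 had 14962 and 13654 at 6 h in CSKi and 15738 and 14993 in DMSO but 10441 and 10419.5 at 24 h in CSKi and 20199 and 20424 in DMSO. The spindle gene TUBB, the replication genes TYMS and PCNA and the polyamine gene SMS also stood near 0 at 6 h and below 0 at 24 h. CYFIP2, a subunit of the WAVE complex, stood at 0.18 ± 0.04 at 6 h and 1.14 ± 0.04 at 24 h (difference of responses -0.96 ± 0.05), and its 6 h call was lost in 1 of the fits without 1 library.

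The medians of 3 gene lists over time, each against its own vehicle, took different courses. Mitosis and G2/M genes had medians of 0.015 at 1 h, 0.131 at 3 h, 0.151 at 6 h and -0.338 at 24 h, with 36 of 38 called lower at 24 h. Ribosome biogenesis genes had medians of 0.006 at 1 h, -0.129 at 3 h, -0.261 at 6 h and -0.488 at 24 h, when all 40 were called lower. Cholesterol genes had medians of 0.017 at 1 h, -0.069 at 3 h, -0.162 at 6 h and 0.150 at 24 h, with 13 called higher and 2 lower at 24 h. At 24 h 54% of all features were called, so these counts stand beside a high background. The lists as such were not tested for a difference between times. A response called higher at 6 h than at 24 h was found for 35 of 38 mitosis and G2/M genes and 25 of 40 ribosome biogenesis genes. The background for that call was 14.1% of all features.

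**Figure D4:**
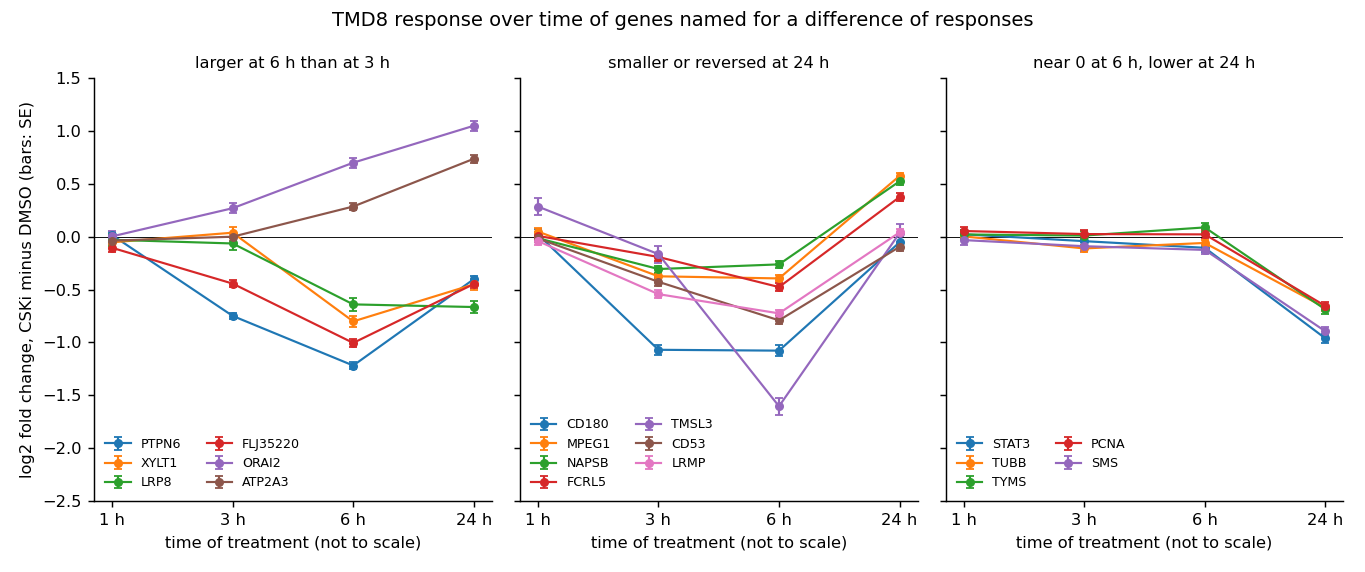
Log2 fold change (CSKi minus DMSO, y axis, bars ± SE of the limma fit) at 1, 3, 6 and 24 h (x axis, not to scale) in TMD8 for genes named for a difference of responses, 1 line per gene. The left panel shows changes larger at 6 h than at 3 h, the middle one falls of 6 h that were smaller or turned at 24 h, and the right one genes near 0 at 6 h that were lower at 24 h, where STAT3 stood at -0.96 ± 0.04.

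DOHH2, a line of the germinal centre type, was treated in the same way and shares no library with TMD8. At 6 h the test called 1280 of 12000 features in DOHH2 (10.7%, 5.28% higher and 5.38% lower). Of the 679 genes higher in TMD8, 671 were tested in DOHH2, where 140 were higher and 52 lower. Of the 834 lower in TMD8, 812 were tested there, where 219 were lower and 64 higher. Over 11464 genes tested in both, r of the log2 fold changes was 0.15. The difference between the lines was called for 717 features (5.97%), of which 301 genes were higher and 409 lower in TMD8 (background 2.52% and 3.46%) among the 11517 tested.

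Named genes differed between the lines in both directions. CD180, at -1.08 ± 0.05 in TMD8, had 1609 and 1633 normalised counts in DOHH2 with CSKi and 1583 and 1539 with DMSO, and the difference between the lines was -1.13 ± 0.07 (adjusted p = 1.77e-10). CD53, at -0.79 ± 0.04 in TMD8, had 3835 and 3891 in DOHH2 with CSKi and 3566 and 3476 with DMSO (difference -0.93 ± 0.05), and LRMP (-0.94 ± 0.05) and DHRS9 (-1.52 ± 0.10) differed likewise. In these genes the CSKi libraries of TMD8 lay far below DMSO and those of DOHH2 a little above it. EGR2, at -2.60 ± 0.17 in TMD8, had 48.9 and 46.2 in DOHH2 with CSKi and 26.3 and 38.7 with DMSO (difference -3.18 ± 0.29). ZBTB32 had at most 11.9 normalised counts and TNF at most 2.6 in any of these DOHH2 libraries, so their responses there rest on a few reads and no difference is given. ORAI2, at 0.70 ± 0.05 in TMD8, had 8552 and 8878 in DOHH2 with CSKi and 8504 and 8493 with DMSO (difference 0.67 ± 0.05). IQSEC1, an exchange factor for ARF GTPases, had 27978 and 27421 in TMD8 with CSKi and 22584 and 22709 with DMSO, and 1229 and 1229.6 in DOHH2 with CSKi and 2257 and 2255 with DMSO, opposite directions (1.17 ± 0.07). The responses of ATP2A3 (0.73 ± 0.06), ADORA2A (0.96 ± 0.08) and PLD4 (0.94 ± 0.08) were higher in TMD8 than in DOHH2, where these genes fell. That of the transcription factor gene MYB was lower in TMD8 (-0.88 ± 0.06) than in DOHH2, where it rose. In TMD8 itself ADORA2A (0.155 ± 0.05), PLD4 (0.11 ± 0.04) and MYB (-0.11 ± 0.06) were not called.

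PTPN6 fell in both lines, as did many ribosome biogenesis genes. The response of PTPN6 was -1.22 ± 0.03 in TMD8, and in DOHH2 it had 1612 and 1912 normalised counts with CSKi and 2656 and 2691 with DMSO (-0.61 ± 0.04; difference -0.61 ± 0.06). Ribosome biogenesis genes had a median of -0.26 in TMD8 and -0.17 in DOHH2, with 31 of 40 called lower in TMD8 and 24 in DOHH2. Mitosis and G2/M genes had medians of 0.15 in TMD8 and -0.005 in DOHH2, with 15 called higher in TMD8 and 5 in DOHH2. The difference between the lines was called for 3 of the ribosome biogenesis genes, all lower in TMD8, and for 4 of the mitosis and G2/M genes, all higher in TMD8, and the lists as such were not tested.

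**Figure D5:**
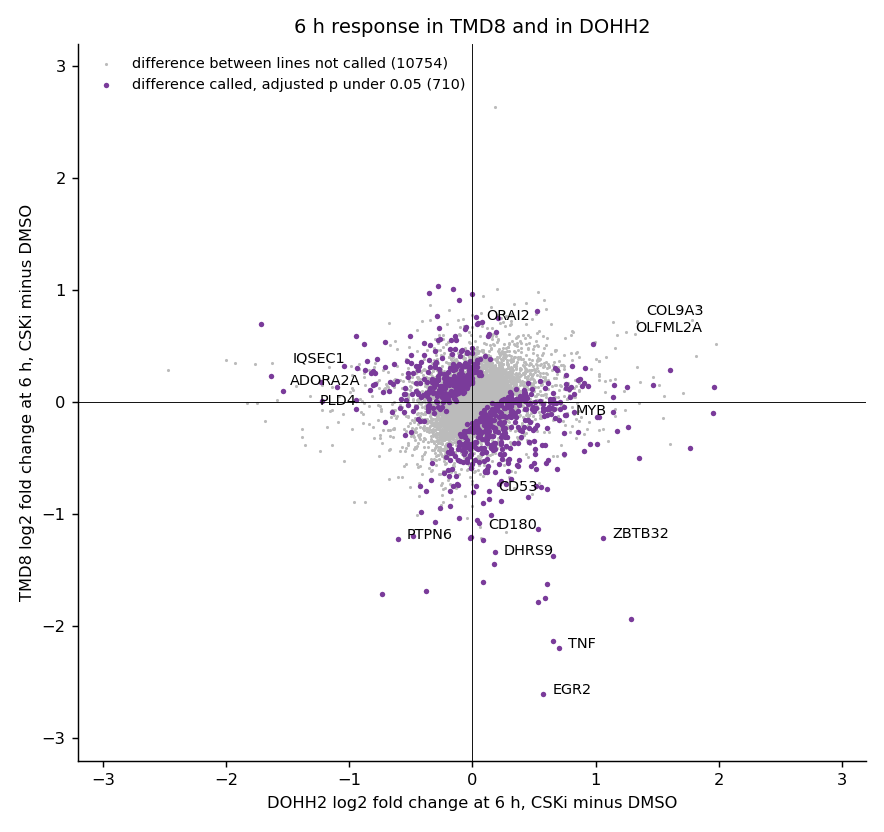
Log2 fold change at 6 h in TMD8 (y axis) against that in DOHH2 (x axis) for the 11464 genes tested in both, 1 point per gene, purple for those whose difference between the lines was called. EGR2 and TNF lie lowest, at -2.60 and -2.19 in TMD8, with DOHH2 values that rest on few reads, and PTPN6 lies below 0 in both lines.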

How the data were processed

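Poly(A) RNA of 32 libraries was sequenced as paired 75-base reads, with 17731630 to 21378599 mapped reads in the 4 libraries of TMD8 at 6 h. The deposited values are log2 values made by the authors, and as the values show they are the log2 of gene counts times a factor per library, with 0 for no reads. HTSeq and hg19 are named in the submitters' processing notes. The sources used here do not name the aligner, tool versions, strand setting or scaling factor, so reads of overlapping or antisense genes may not be told apart. Undoing the log2 step gave the normalised counts printed. Dividing by the smallest step of each library gave whole reads within 0.1 for 98.26 to 100.0% of low values at 6 h. The table's line of mapped totals was dropped.

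Differences of log2 values were tested with limma 3.58.1 in R 4.3.3 on the deposited scale, with group means over the 16 TMD8 libraries, empirical Bayes with a trend, two-sided p and Benjamini-Hochberg adjustment over the 12000 features of highest mean. No pseudocount was added, so fold changes of the lowest genes lean on the authors' treatment of low counts. Responses were compared as differences of contrasts in the same fit, and the lines in a fit of 28 libraries that left out DOHH2 at 24 h, whose duplicates differed widely. Alternatives covered features tested, thresholds, scaling, pseudocounts, variance model, libraries fitted, replicate block and each library left out. The TMD8 fit was also run on simulated data with known changes, for the 6 h comparison and the difference between 6 h and 3 h. The simulation gave every gene the same dispersion. The other differences and the fit of 28 libraries were not checked in this way. Tables and figures were made with Python 3.11.15, pandas 2.3.3, NumPy 2.4.6 and matplotlib 3.10.9.

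Named genes were up to 15 of the largest change each way at a mean log2 of 7 or more with groups apart, up to 8 of smallest p each way, up to 6 per gene list or all members of a list described in depth, up to 5 each way per difference of responses, CSK, LYN, PAG1, the markers and the genes at the threshold of 5. UPLP was named besides these after its values were seen, and a few genes that the rule names are not reported here. The genes and lists were chosen with earlier results of these data known. Replicate numbers did not pair the libraries, as the deviations of same-numbered CSKi and DMSO libraries at 6 h correlated at 0.036 and those of all pairs of TMD8 groups at -0.16 to 0.166.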

Additional observations from a re-analysis of the deposited data

Results flagged for a closer look

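The responses below differed between times or lines in the test of the difference itself (limma, Benjamini-Hochberg adjusted p under 0.05), and each value is a difference of log2 fold changes. No cause was tested.

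Between 6 h and 3 h in TMD8, the response was higher at 6 h for EGR2 (1.90), ADORA2A (0.45), ORAI2 (0.43) and ATP2A3 (0.29). It was lower at 6 h for TMSL3 (-1.44), XYLT1 (-0.84), LRP8 (-0.58), FLJ35220 (-0.56) and PTPN6 (-0.47). For EGR2 the positive value is a smaller fall, set against low CSKi counts at 3 h. For TMSL3 it is the 6 h vehicle libraries that stand apart. For ORAI2 and FLJ35220 the vehicle also moved between 3 h and 6 h. ADORA2A was not called at 6 h itself.

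Between 6 h and 1 h, it was higher at 6 h for CCR7 (0.71), ORAI2 (0.70), OLFML2A (0.68) and BCL2L11 (0.32). It was lower at 6 h for TMSL3 (-1.89), DHRS9 (-1.37), PTPN6 (-1.23), CD180 (-1.10) and FLJ35220 (-0.90).

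Between 6 h and 24 h, it was higher at 6 h for STAT3 (0.86), TYMS (0.78), SMS (0.77), PCNA (0.68) and TUBB (0.62), none of which was called at 6 h. It was lower at 6 h for MPEG1 (-0.97), CYFIP2 (-0.96), FCRL5 (-0.85), PTPN6 (-0.82) and NAPSB (-0.79).

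Between TMD8 and DOHH2 at 6 h, it was higher in TMD8 for IQSEC1 (1.17), ADORA2A (0.96), PLD4 (0.94), ATP2A3 (0.73) and ORAI2 (0.67). It was lower in TMD8 for DHRS9 (-1.52), CD180 (-1.13), LRMP (-0.94), CD53 (-0.93) and MYB (-0.88). ADORA2A, PLD4 and MYB were not called in TMD8 itself.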

How the results depend on the processing

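For TMD8 at 6 h, 1518 features were called, against 874 at an adjusted p under 0.01, 182 at 1.5-fold or more, 684 when all 32 libraries entered the choice of features and the estimate of the spread and 836 to 890 without 1 library. The 48 calls between 6 h and 3 h became 10 with no filter, 18 at an adjusted p under 0.01, 6 at 1.5-fold or more, 7 without a trend in the variance, 291 with only the libraries of these times and 12 to 23 without 1 library. The 708 calls between 6 h and 1 h became 427 with no filter, 337 at an adjusted p under 0.01, 161 at 1.5-fold or more, 383 without a trend and 399 to 688 without 1 library. The 3549 calls between 6 h and 24 h became 2331 at an adjusted p under 0.01, 797 at 1.5-fold or more and 2742 to 4242 without 1 library. The 717 calls between the lines became 411 at an adjusted p under 0.01, 245 at 1.5-fold or more, 250 with all 32 libraries and 498 to 621 without 1 library. Every other alternative run moved these counts by less than 1.5 times, and no named gene reversed in any. For named genes at 6 h, 5954 of the alternative values kept their side of the threshold, 593 lost the call and 81 gained it. Except where the threshold itself was stricter, the cause was not tested.

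With the replicate number as a block, the counts were 1544 at 6 h, 54 against 3 h, 734 against 1 h, 3600 against 24 h and 740 between the lines. The numbers did not pair the libraries.

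Duplicates limit every call, and at low counts the median SE of 0.196 leaves small changes undetectable.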

Other observations

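Further gene lists of TMD8 at 6 h stand beside a median of 0.015 over all genes. The background over all 12000 features was 12.7% called, 5.67% higher and 6.98% lower. Of 34 chromatin modifiers 4 were called higher and 1 lower (median 0.037; 2 to 4 higher and 0 or 1 lower in the fits without 1 library). Of 18 quiescence factors 4 were called higher and 1 lower (median 0.029; 2 to 4 higher). Of 21 p53 targets 3 were called higher and 2 lower (median 0.071; 0 or 1 higher and 1 lower). Of 20 serine, one-carbon and ATF4 genes 1 was called higher and 4 lower (median -0.047; 1 or 2 higher and 2 to 4 lower), of 23 genes of mitochondrial import and chaperones 2 lower (median -0.072; 1 lower), and of 22 genes of mRNA decay and AU-rich binding 2 lower (median -0.010; 1 or 2 lower). Of 25 genes of PI3K and FOXO 1 was called higher and 4 lower (none higher and 2 or 3 lower in the fits without 1 library), with a median of -0.010 that became 0.004 after quantile normalization.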
